A study of Homo sapiens with 6 samples.

Results

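The G2/M and mitosis genes are a list of 39 genes whose products carry a cell from the end of DNA replication through chromosome segregation and cytokinesis. They were chosen by name, and a gene was measured where a probe set carried its symbol and no other. This gave 38 of 39 members, among 18417 genes measured in all. CENPA, the histone H3 variant that marks centromeres, shares its probe set with SLC35F6 and therefore has no value here. Only BIRC5 had more than 1 such probe set.

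Expression was measured on 6 single-channel arrays of MCF10A, a cell line from human breast epithelium that does not form tumours. The series joins its name with ErbB2, the HER2 growth factor receptor. There were 3 arrays labelled RB-proficient (sample titles with the tag miNS) and 3 labelled RB-deficient (tag miRB). RB is the retinoblastoma protein, and the labels spell out neither tag, nor how RB was lowered, nor whether a line is a single clone. All 6 cultures shared the ErbB2 background, 7 days of 3-D culture in reconstituted basement membrane, and a medium with horse serum, insulin, cholera toxin and hydrocortisone. The labels do not state whether replicates came from separate cultures. The p-values therefore cover only the variation among these arrays, part of which may be technical. All values are log2 intensities, with array medians made equal and values under 1 set to 1, so that 0 is the floor. A difference is the mean of the 3 RB-deficient arrays minus that of the 3 RB-proficient arrays.

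Mitotic genes are silent in resting cells and are transcribed late in the cell cycle. In resting cells the DREAM complex, which holds a pocket protein related to RB, represses them through an element of their promoters called CHR, and in cycling cells MYB and FOXM1 complexes activate them through the same element, often beside CCAAT boxes bound by NF-Y. Cyclin B with CDK1 drives entry into mitosis, Aurora and Polo-like kinases build the spindle, the checkpoint holds sister chromatids together until kinetochores are attached, and the anaphase-promoting complex then destroys cyclin B and securin. Because most of these transcripts are made in the same window of the cycle, their sum in a bulk sample follows how many cells are in that window. In bulk arrays, fewer cells in G2 and mitosis and less of these RNAs per cell cannot be told apart.

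The promoter windows below show which of these elements were found in members whose array values differed in kind. CCNB1 and CCNB2 encode the B-type cyclins, PLK1 a mitotic kinase, CENPF a kinetochore protein with the widest spread of any member over the RB-deficient arrays apart from KIF2C, and ESPL1 the protease separase, whose order over the RB-deficient arrays was the reverse of that of CENPF. Each line is the 150 bases before the RefSeq start site (GRCh38.p14), 5′ to 3′ on the gene's strand. Capitals mark CHR matches (TTTGAA or TTCGAA) and CCAAT matches, on either strand. CCAAT matches are in all 5 lines and CHR matches in those of CCNB2, PLK1 and ESPL1. CENPF has a CHR match only outside the printed bases, within the longer window described next, and CCNB1 has none in either. CCNB1 lies at chr5:69167000-69167149 (+), CCNB2 at chr15:59104996-59105145 (+), PLK1 at chr16:23678739-23678888 (+), CENPF at chr1:214603045-214603194 (+) and ESPL1 at chr12:53268149-53268298 (+).
CCNB1: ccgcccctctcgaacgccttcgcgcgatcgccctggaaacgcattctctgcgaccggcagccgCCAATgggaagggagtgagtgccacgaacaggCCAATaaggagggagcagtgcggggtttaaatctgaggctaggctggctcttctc
CCNB2: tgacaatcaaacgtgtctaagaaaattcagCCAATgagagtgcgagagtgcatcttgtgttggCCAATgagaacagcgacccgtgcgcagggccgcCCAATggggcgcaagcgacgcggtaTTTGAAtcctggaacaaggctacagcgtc
PLK1: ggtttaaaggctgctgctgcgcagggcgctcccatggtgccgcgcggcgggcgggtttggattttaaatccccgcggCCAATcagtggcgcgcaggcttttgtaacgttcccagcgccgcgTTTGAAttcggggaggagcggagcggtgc
CENPF: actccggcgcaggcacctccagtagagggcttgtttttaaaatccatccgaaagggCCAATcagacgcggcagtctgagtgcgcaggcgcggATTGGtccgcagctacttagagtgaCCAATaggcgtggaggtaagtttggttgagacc
ESPL1: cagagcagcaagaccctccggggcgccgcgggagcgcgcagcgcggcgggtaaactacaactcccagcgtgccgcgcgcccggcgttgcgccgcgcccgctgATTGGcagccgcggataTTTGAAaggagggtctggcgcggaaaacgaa

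RefSeq promoter windows of 300 bases, from 250 before to 50 after the start site, were matched for 32 of the 38 measured members. A CHR match was in 23 of these 32 (71.9%), against 16.6% of 27305 promoters in the table. A CCAAT match was in 25 of 32 (78.1%), against 35.7% of all promoters, and matches to both were in 19 members (59.4%), against 6.58%. The letters of CCNB1, CCNA2, CDC25C, NEK2, AURKB, PTTG1, CENPE, KIF2C and KIF20A held no CHR match in this window, which says only that these letters are not there. A match is a description of the sequence and not a measured binding site.

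Whole-array measures bear on every value below. Over all genes, the correlation r between RB-proficient arrays was 0.90 to 0.92. With the RB-proficient arrays, RB-deficient array 3 gave r of 0.83 to 0.88, array 1 gave 0.68 to 0.71 and array 2 gave 0.69 to 0.75. RB-deficient arrays 1 and 2 gave 0.67 with each other. These 2 arrays thus stood apart over all genes, and the part of this in the members' values was not tested. Median deposited intensities were 24.2 to 27.1 in the RB-proficient arrays and 21.4 to 28.05 in the RB-deficient ones, and the share of genes at the floor was 0.326% to 0.684% and 0.684% to 4.71%, highest in RB-deficient array 1. RB1 itself, the gene of the RB protein, read 7.01, 5.77 and 7.65 with RB and 3.45, 5.09 and 6.04 in the arrays labelled deficient, each in replicate order (difference −1.95, SE 0.76, adjusted p = 0.302 in limma). The groups overlapped for RB1, since RB-deficient array 3 lay above RB-proficient array 2, so group names are those of the labels. The reference genes ACTB (−1.92, SE 0.50, adjusted p = 0.213) and GAPDH (−1.23, SE 0.47, adjusted p = 0.302) were lower in the RB-deficient arrays, and what part of the members' differences moves with them was not tested. Of 12 epithelial markers 9 were measured and none was at the floor in any array, among them KRT5, KRT14, KRT8, KRT18, EPCAM and CDH1. Their summed intensity was 3344 to 5965 with RB and 2090 to 2889 in the RB-deficient arrays. The sums were 132 to 183 and 123 to 286 for 6 of 6 fibroblast markers, 511 to 629 and 347 to 452 for 6 of 6 endothelial markers, and 318 to 438 and 180 to 262 for 5 of 6 leukocyte markers, with COL3A1 at 0 in RB-deficient array 1. The part of other cell types in the results was not tested.

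No member differed between the groups by a test that corrects for all genes. By limma over all genes, 0 of 38 members passed an adjusted p of 0.05 (background 0.00543% of genes), and 0 passed with any of the other settings run. At an unadjusted p under 0.05, 3 members were lower in the RB-deficient arrays, where 10.8% of all genes were, and 0 were higher, where 2.85% of all genes were. The values of the groups did not overlap for the same 3 members, KIF20A, BUB1 and CDC25C (background 15.3% lower and 7.12% higher). In all, 25 of 38 members had a difference below 0 (background 58.6%), and the median difference was −0.19, beside −0.21 over all genes. These counts rest on single arrays. Without RB-proficient array 3, only 15 members were lower, 0 had an unadjusted p under 0.05, and the median difference was 0.18. Without RB-deficient array 1, 34 were lower, 7 had an unadjusted p under 0.05, 10 did not overlap on the lower side and the median was −0.60, and without RB-proficient array 1, 5 did not overlap. Without RB-deficient array 2, the median was 0.23. Over all genes the median was −0.17 without RB-proficient array 3, −0.24 without RB-deficient array 1 and −0.16 without RB-deficient array 2. Shares of all genes were not counted with an array left out. Smaller groups also separate more easily, so these counts cannot be set against the shares above.

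**Figure D1:**
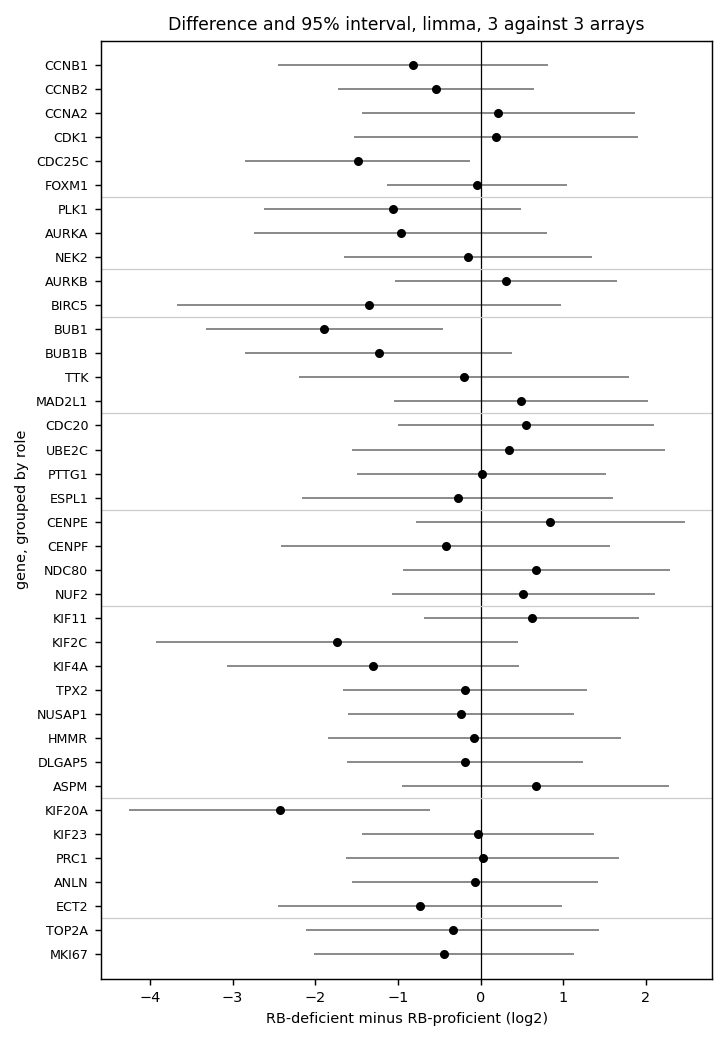
Difference between the groups for each of the 38 members (points, RB-deficient minus RB-proficient, log2) with limma's 95% interval (lines), 3 arrays against 3, grouped by role. The intervals of KIF20A, BUB1 and CDC25C lie below 0 before adjustment, and those of the other 35 members span 0.

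KIF20A, a kinesin of the central spindle that is needed for cytokinesis (probe set 8108301), had the largest difference among the members. In replicate order, its RB-proficient values were 4.56, 5.18 and 6.73, and its RB-deficient values 1.71, 2.92 and 4.54. The same order holds for all values below, RB-proficient arrays first. The groups were separated only narrowly, because RB-deficient array 3 lay just under RB-proficient array 1. The KIF20A difference was −2.43 (SE 0.81, 95% interval −4.26 to −0.61, 5.40-fold lower), and limma gave an adjusted p of 0.267. The smallest adjusted p of any member lay between 0.109 and 0.728 over all the settings run. With a floor of 16 in place of 1 it was −1.31, and with an offset of 16 it was −1.27.

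BUB1, a kinase of the spindle checkpoint that works at unattached kinetochores (probe set 8054580), read 4.95, 6.19 and 6.37, then 3.99, 3.01 and 4.85. All RB-deficient values lay below the lowest RB-proficient one, again with a small gap between RB-deficient array 3 and RB-proficient array 1. The BUB1 difference was −1.89 (SE 0.64, 95% interval −3.33 to −0.46, 3.71-fold lower), with an adjusted p of 0.271. With the offset of 16 it was −1.20.

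CDC25C, the phosphatase that removes inhibitory phosphates from CDK1 (probe set 8114425), lay near the low end of the scale. It read 2.60, 2.63 and 4.19, then 1.11, 2.24 and 1.60. The difference of −1.49 (SE 0.61, adjusted p = 0.325) depends on the floor, and it was −0.06 with a floor of 16, because only RB-proficient array 3 lay above that floor. Whether a probe set at such a level lies above background is not known here.

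Among the genes of entry into mitosis, the RB-deficient arrays disagreed with each other. CCNB1 (cyclin B1) read 6.94, 8.36 and 8.57, then 8.56, 6.42 and 6.42. RB-deficient array 1 was thus level with the highest RB-proficient array, and the other two RB-deficient arrays lay below the lowest. The CCNB1 difference was −0.82 (SE 0.73, adjusted p = 0.634). CDK1, the kinase that cyclin B activates, read 5.26, 5.54 and 6.24, then 7.47, 4.36 and 5.77. Its RB-deficient values lay above, below and within the RB-proficient range, and the difference was 0.19 (SE 0.76). CCNA2 (cyclin A2), which acts earlier, reached 7.34 in RB-deficient array 1 against an RB-proficient range of 4.89 to 6.61, and lay within that range in the other RB-deficient arrays. CCNB2 (cyclin B2) was nearly constant across the RB-deficient arrays at 5.54, 5.46 and 5.54, all within its RB-proficient range of 5.21 to 6.57. FOXM1, the transcription factor that activates many other members, moved little in any array (6.89, 7.65 and 7.16, then 7.48, 6.99 and 7.10).

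The members that are mitotic kinases of the centrosome and spindle were all lower on average, NEK2 only slightly. PLK1, the Polo-like kinase, read 5.42, 6.93 and 6.96, then 5.25, 4.35 and 6.51 (difference −1.06, SE 0.69, adjusted p = 0.520). AURKA, the Aurora kinase of spindle poles, read 5.51, 6.04 and 7.89, then 6.60, 4.23 and 5.70 (−0.97, SE 0.79, adjusted p = 0.606). For PLK1 and AURKA the lowest value was in RB-deficient array 2, and the groups overlapped. NEK2, which helps centrosomes separate, had RB-deficient values of 4.84 to 5.30 inside an RB-proficient range of 3.99 to 6.54. Its difference was −0.15 (SE 0.67), beside a median of −0.21 over all genes, and it was 0.52 without RB-proficient array 3.

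The chromosomal passenger complex corrects faulty attachments, and its 2 subunits on the member list went opposite ways across the arrays. Its subunits INCENP and CDCA8 are in the wider list of mitosis genes described below. INCENP read 8.64, 8.54 and 8.76, then 7.97, 7.60 and 7.63. CDCA8 read 4.12, 3.63 and 5.04, then 5.53, 2.72 and 3.29. AURKB, the kinase of the complex, read 5.26, 4.69 and 4.57, then 4.19, 6.15 and 5.10, so it was lowest in RB-deficient array 1 and highest in array 2. BIRC5 (survivin) read 5.25, 7.47 and 7.94, then 7.87, 4.19 and 4.54, with the highest RB-deficient value in array 1. The second BIRC5 probe set gave 5.08, 7.11 and 7.93, then 6.63, 4.14 and 4.87, and its difference of −1.49 stood beside −1.35 for the brighter one (SE 1.04).

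Of the spindle checkpoint genes besides BUB1, TTK (the kinase MPS1) read 4.40, 5.81 and 6.44, then 7.03, 3.53 and 5.49. It was above every RB-proficient value in RB-deficient array 1 and below every one in array 2. MAD2L1, which inhibits CDC20, reached 7.94 in RB-deficient array 1 against an RB-proficient range of 5.34 to 7.15. BUB1B (BUBR1) had its lowest value, 2.57, in RB-deficient array 2, and its difference was −1.23 (SE 0.72).

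Of the 4 anaphase genes, 3 were highest in RB-deficient array 1 (background 25.9%), and separase was lowest there (background 27.6%). UBE2C, the ubiquitin-conjugating enzyme of the anaphase-promoting complex, read 4.80, 5.16 and 5.89, then 7.71, 4.67 and 4.48. CDC20, an activator of that complex, read 3.92, 4.52 and 4.37, then 6.21, 4.72 and 3.52. PTTG1 (securin), which inhibits separase, read 7.74, 8.30 and 8.58, then 9.43, 8.30 and 6.93. All 3 lay above the RB-proficient range in array 1 and below it in array 3. ESPL1 (separase) was the reverse, with 3.69, 3.88 and 3.87, then 1.41, 4.94 and 4.26. The ESPL1 difference was −0.28 (SE 0.84), and it was 0.40 with a floor of 16, so it has no settled sign.

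All 4 measured members of the centromere and kinetochore lay above the whole RB-proficient range in RB-deficient array 1 (background 35.2%). Other genes of this kind were mixed. Of 27 passenger, checkpoint and kinetochore genes in the wider list, 12 lay above that range in this array and 9 below it (background 42.1% below). CENPE, a motor that aligns chromosomes, had 5.68, 5.47 and 5.49 in the RB-proficient arrays, a range of only 0.20, and 8.12, 5.61 and 5.43 in the RB-deficient arrays. CENPF read 5.23, 6.03 and 6.86, then 7.54, 3.83 and 5.48. NUF2 and NDC80, partners in the complex that binds microtubules, had RB-deficient values of 6.72, 4.19 and 5.55 and of 7.15, 4.69 and 5.21. The NUF2 values lay above, just below and within its RB-proficient range, whose top was 5.59. The differences ran from −0.42 for CENPF to 0.84 for CENPE (SE 0.72), and none passed.

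Of 8 spindle genes, 4 were above the RB-proficient range in RB-deficient array 1 (background 35.2%) and 6 were below it in array 2 (background 48%). ASPM, which focuses spindle poles, read 5.47, 5.42 and 5.90, then 7.91, 5.10 and 5.77. TPX2, the activator of AURKA, read 6.24, 6.82 and 7.76, then 7.85, 5.82 and 6.58. DLGAP5, a microtubule-stabilising protein, read 6.07, 6.45 and 7.04, then 7.54, 5.41 and 6.05. In each of these 3 the first RB-deficient array was the highest of the 6 and the second the lowest. KIF2C, a kinesin that depolymerises microtubules, was the one member to reach the floor, at 0 in RB-deficient array 2, beside 3.79 and 3.30 in arrays 1 and 3. Its difference of −1.74 (SE 0.97) was −0.56 without that array and −0.42 with a floor of 16.

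The cytokinesis genes other than KIF20A overlapped between the groups. PRC1, which bundles antiparallel microtubules in the midzone, read 6.55, 6.99 and 8.21, then 8.44, 5.89 and 7.50. All 5 cytokinesis genes, PRC1, KIF23, ANLN, ECT2 and KIF20A, were below their RB-proficient range in RB-deficient array 2 (background 48%). ECT2, the exchange factor that activates RhoA at the cleavage furrow, was furthest below it in that array, at 5.30 against 7.44 to 8.33.

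The 2 chromosome genes disagreed. TOP2A, the topoisomerase that untangles sister chromatids, read 6.49, 7.15 and 8.00, then 8.46, 5.36 and 6.80. RB-deficient array 1 was the highest of its group, as for 30 of the 38 members (background 38.8%). RB-deficient array 2 was the lowest, as for 24 (background 37.3%). MKI67, the Ki-67 proliferation antigen that coats mitotic chromosomes, read 4.01, 5.09 and 6.29, then 3.73, 5.42 and 4.91, with RB-deficient array 1 the lowest of all 6 arrays. The differences were −0.34 (SE 0.79) for TOP2A and −0.44 (SE 0.70) for MKI67.

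**Figure D2:**
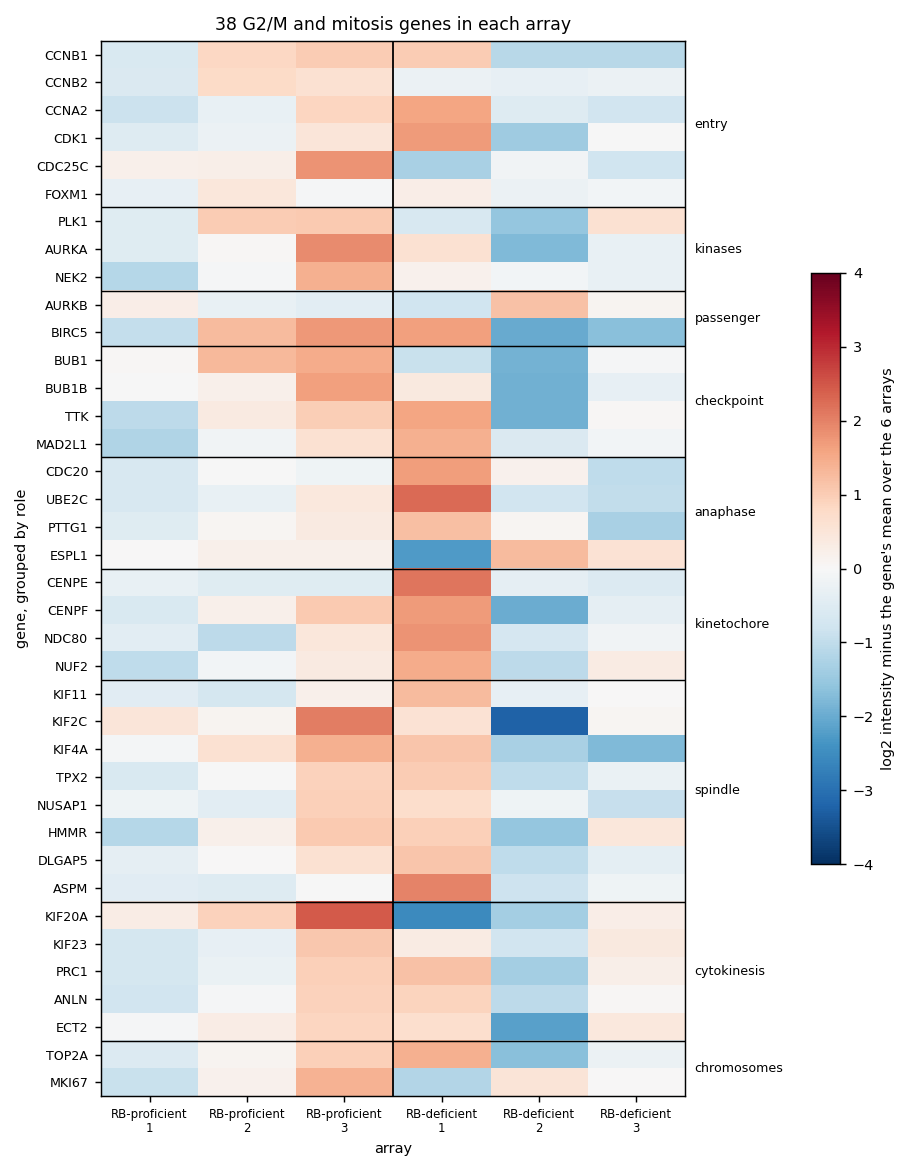
Log2 intensity of each of the 38 members (rows, grouped by role) in each of the 6 arrays (columns), as the difference from that gene's mean over the 6 arrays, from blue (lower) to red (higher). Red columns at RB-proficient array 3 and RB-deficient array 1 stand beside blue ones at RB-proficient array 1 and RB-deficient array 2, and the exceptions that are blue in RB-deficient array 1 are KIF20A, BUB1, CDC25C, PLK1, AURKB, ESPL1, MKI67 and, faintly, CCNB2.

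Most members also varied together among arrays of the same group. In RB-proficient array 1 the median member was −1.06 from the mean of the other RB-proficient arrays, in array 2 −0.11 and in array 3 1.18, where the medians over all genes were −0.0048, −0.12 and 0.15. RB-proficient array 3 held the highest of the RB-proficient values for 32 of 38 members (background 44.3%), and array 1 the lowest for 31 (background 31.9%). The range over the RB-proficient arrays was 1 or more, that is 2-fold, for 27 members (71.1%, background 33.5%). Its median was 1.52, beside 0.76 over all genes, and the median SD was 0.77, beside 0.40. The members that did not have their highest RB-proficient value in array 3 were CCNB2, FOXM1, AURKB, CDC20, ESPL1 and CENPE.

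The RB-deficient arrays were further apart, with a median SD of 1.26 over the members, beside 0.84 over all genes. The median member was 0.88 above the RB-proficient mean in RB-deficient array 1, and −0.98 and −0.36 from it in arrays 2 and 3, beside medians over all genes of −0.14, −0.37 and −0.14. The first 2 of these arrays therefore lay on opposite sides of the control level for the median of these 38 members. In array 1 the wider list of mitosis genes described below was near the control level. Array 1 exceeded array 2 for 33 of 38 members (background 53.1%), by a median of 2.10 where all genes had 0.13. The 5 members with array 2 the higher were CDC25C, AURKB, ESPL1, KIF20A and MKI67. The median range over the RB-deficient arrays was 2.42, beside 1.60 over all genes.

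**Figure D3:**
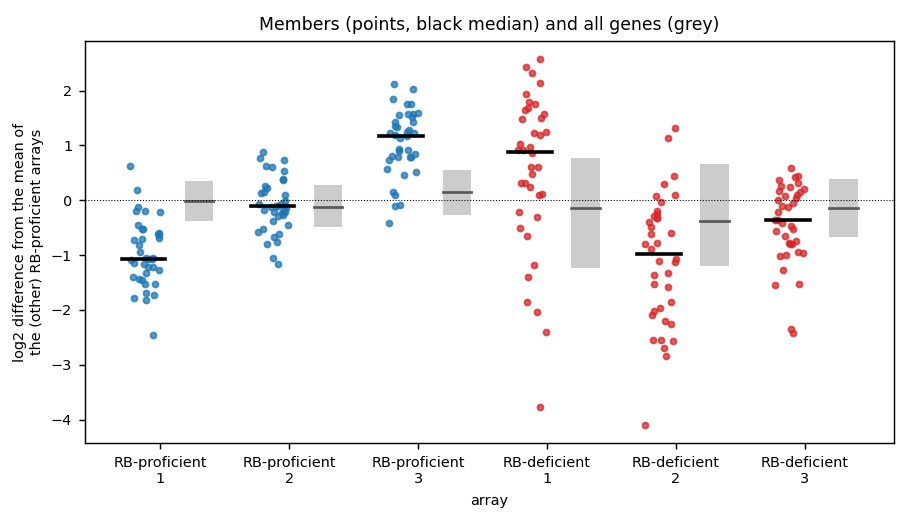
For each array (x axis), the log2 difference of each of the 38 members from the mean of the RB-proficient arrays, leaving out the array itself where it is one of them (points, blue for RB-proficient and red for RB-deficient, with the members' median as a black line). Grey boxes span the middle of all 18417 genes from the 25th to the 75th percentile, with their median. The members' medians run from −1.06 to 1.18 within the RB-proficient group and from −0.98 to 0.88 within the RB-deficient group. Leaving out the array itself makes the RB-proficient medians larger in size, so the spreads of the groups cannot be compared from these medians. The median range of a member was 1.52 over the RB-proficient arrays and 2.42 over the RB-deficient ones.

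Set against the range of the RB-proficient arrays, RB-deficient array 1 was above it for 17 members (44.7%, background 35.2%) and below it for 7 (18.4%, background 42.1%). RB-deficient array 2 was above it for 3 members (7.89%, background 30.4%), AURKB, CDC20 and ESPL1, and below it for 24 (63.2%, background 48%). RB-deficient array 3 was above it for 1 member, ESPL1 (background 25.5%), below it for 14 (36.8%, background 37.6%) and within it for 23 (60.5%, background 36.9%). In all, 15 members were above the range in 1 RB-deficient array and below it in another. In all of these but AURKB and ESPL1 an array above the range was number 1. The share of all genes with both was not counted, so the number 15 is a description only. Some margins were small, such as 5.43 against 5.47 for CENPE in RB-deficient array 3. Without scaling between arrays, 16 members were above the range in RB-deficient array 1, and with centring on the gene median 22 were. Shares of all genes were not counted under these settings.

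The 7 members below the range in RB-deficient array 1 were KIF20A, ESPL1, BUB1, CDC25C, PLK1, AURKB and MKI67. Of these, KIF20A, BUB1 and CDC25C were the same genes whose groups did not overlap. KIF20A was −3.78 from the RB-proficient mean in that array and ESPL1 was −2.41 from it. The 3 with the largest excess there were CENPE (2.58), UBE2C (2.43) and ASPM (2.32). RB-deficient array 1 also had the lowest RB1 value and the most genes at the floor, and the part of either in these values was not tested.

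The shared array order was seen with and without a CHR match in the promoter window. The 23 members with a match had a median of 2.13 for RB-deficient array 1 minus array 2 and of 1.43 for RB-proficient array 3 minus array 1. The 9 without a match had medians of 1.13 and 1.60. For the CCAAT box, the medians were 1.61 and 1.48 in the 25 members with a match, and 2.46 and 1.56 in the 7 without. The larger median for RB-deficient array 1 minus array 2 was thus on the side without a CCAAT match. Of the members that were lower in RB-deficient array 1 than in array 2, ESPL1 and MKI67 held matches to CHR and CCAAT. The others, CDC25C, AURKB and KIF20A, held no CHR match. CCNB2, whose RB-deficient values hardly varied, held matches to both elements. The number of genes without a match is small, and no test was made.

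A wider list of 104 other mitosis symbols, of which 97 were measured, gave the same array order within each group, mostly with smaller sizes. Its RB-proficient medians, from replicate 1 to 3, were −0.27, −0.12 and 0.50, and its RB-deficient medians 0.065, −0.81 and −0.14. In RB-deficient array 1 it was thus near the control level, where the members' median was 0.88. RB-deficient array 2 held the lowest of the 6 values for 45 of the 97 (46.4%) and for 19 members (50%, background 29.9%). Medians of the RB-proficient arrays leave out the array itself, so they were not ranked against those of the RB-deficient arrays. RB-proficient array 3 was the highest of its group for 62 of the 97 (63.9%, background 44.3%) and RB-deficient array 1 exceeded array 2 for 74 (76.3%, background 53.1%). Of the 97, 55 were lower in the RB-deficient group (56.7%, background 58.6%), the median difference was −0.16 (−0.62 without RB-deficient array 1), and 0 passed an adjusted p of 0.05 in limma, with 10 lower (10.3%, background 10.8%) and 0 higher (background 2.85%) at an unadjusted p under 0.05. Groups did not overlap for 15 on the lower side (15.5%, background 15.3%) and 4 on the higher (4.12%, background 7.12%). These shares were near or under those of all genes.

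Within this list, the 26 spindle, centrosome and cytokinesis genes were closest to the members, with medians of 0.79 in RB-proficient array 3, 0.85 in RB-deficient array 1 and −0.88 in RB-deficient array 2. The 27 passenger, checkpoint and kinetochore genes had 0.38, 0.54 and −0.81. The 14 subunits and regulators of the anaphase-promoting complex varied less over the RB-proficient arrays, with medians from −0.26 to 0.16. The 16 condensin and cohesin genes, which shape chromosomes and hold sister chromatids together, had a median of −0.33 in RB-deficient array 1 and −0.92 in array 2, and the 14 further mitotic kinases and phosphatases had −0.61 and −0.65. These last 2 groups thus lay below the control level in the array where the members lay above it.

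**Figure D4:**
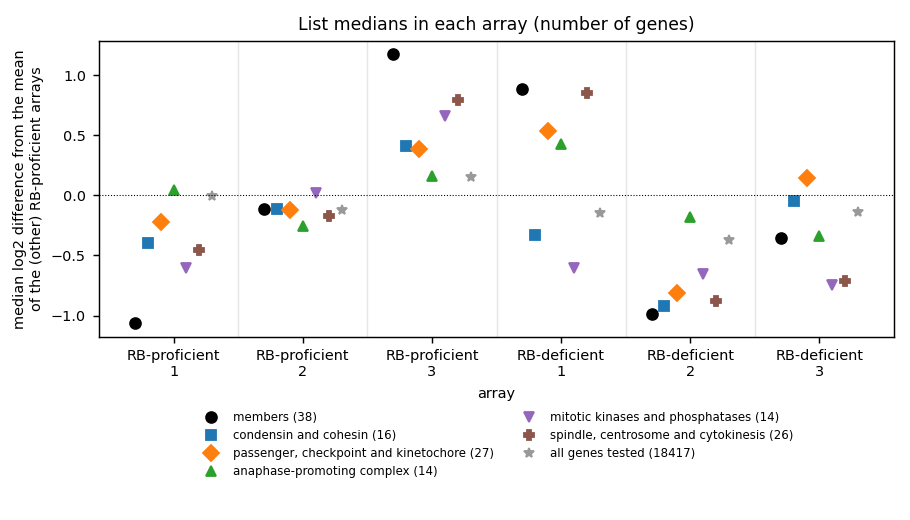
Median log2 difference of each gene list (symbols, with the number of genes) from the mean of the RB-proficient arrays, leaving out the array itself where it is one of them, in each of the 6 arrays (x axis). The members (black circles) are the lowest list in RB-proficient array 1 at −1.06 and the highest in RB-proficient array 3 at 1.18, and all genes (grey stars) stay between −0.37 and 0.15.

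The 4 genes of the wider list with the smallest p are given as a description, since they were picked for their difference. TUBG1, the gamma-tubulin of centrosomes, read 5.49, 6.48 and 6.07, then 2.98, 3.81 and 3.71 (difference −2.51, SE 0.52, adjusted p = 0.206). ANAPC5, a subunit of the anaphase-promoting complex, differed by −2.37 (SE 0.55, adjusted p = 0.206). RACGAP1, the partner of KIF23 in the centralspindlin complex, read 6.85, 6.63 and 8.02, then 4.10, 4.38 and 5.96 (−2.36, SE 0.65, adjusted p = 0.217). KIF23 itself read 6.31, 6.68 and 8.09, then 7.35, 6.23 and 7.41, with a difference of −0.03 (SE 0.62). NCAPD3, a condensin II subunit, differed by −2.12 (SE 0.62, adjusted p = 0.231). None of the 4 passed.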

How the data were processed

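The authors deposited 1 linear intensity per probe set and array, made with Affymetrix Expression Console 1.1 per the submitters' processing notes. The summarisation method is not given in the sources used. Of 33297 probe sets, 19460 carried 1 symbol, 1754 several and 12083 none in the platform annotation, and the brightest probe set stood for a gene (18417 genes). Intensities were scaled per array to a common median, floored at 1 and turned to log2. Differences were tested with limma 3.58.1 (R 4.3.3, lmFit and eBayes, two-sided, Benjamini-Hochberg over all genes, threshold 0.05), after the code was tested on simulated data. With 3 arrays a group, their number limits the precision.

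The members and lists were chosen with earlier results of these data known. Values in every array were due for members with an unadjusted p under 0.05 or no overlap, up to 12 that lay above and below the RB-proficient range, CCNB1, CDK1, PLK1, AURKA, TOP2A and MKI67, and the 4 other mitosis genes with the smallest p. Further members given in full, and INCENP and CDCA8, were chosen after their values were seen. Alternatives were other scalings, floors, filters, probe set rules, a replicate block and leaving out each array.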

Additional observations from a re-analysis of the deposited data

How the results depend on the processing

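No member passed an adjusted p of 0.05 in limma under any setting run, and at most 7 had an unadjusted p under 0.05. With a floor of 16, 1 member had an unadjusted p under 0.05 on the lower side. With centring on the gene median, 1 member had groups that did not overlap on the lower side, 9 were below the RB-proficient range in RB-deficient array 3 and 4 above it. Above that range were 5 members in RB-deficient array 2 with quantile normalization, and 4 in array 3 with quantile normalization or without scaling. Shares of all genes for unadjusted p, overlap and range were not counted under these settings, so these counts are a description only. The median difference of all genes was −0.21, and −0.09 with quantile normalization and −0.08 with centring. Signs turned for FOXM1 (0.16 with quantile normalization, 0.092 with centring), HMMR (0.0034 and 0.059), KIF23 (0.14 and 0.10) and ANLN (0.041 and 0.066), for PTTG1 (−0.033) and PRC1 (−0.019) without scaling, and for ESPL1 (0.40 with a floor of 16, 0.057 with an offset of 16). The cause was not tested. The filter on dim genes kept 35 of 38 members. Over all genes, calls numbered 1 in the reported setting, 58 with the floor of 16, 193 with the offset of 16, 61 with trend and robust eBayes and 0 with the dim filter.

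With each array left out in turn, 15 to 34 members were lower, 0 to 7 had an unadjusted p under 0.05 on the lower side, 3 to 10 did not overlap on the lower side and 0 to 1 on the higher, and the medians ran from −0.60 to 0.23 for the members and from −0.62 to 0.040 for the other mitosis genes. The matching shares of all genes were not counted. The sign changed for 26 members, whose differences ranged as follows: ANLN −0.53 to 0.43, ASPM −0.16 to 1.25, AURKB −0.19 to 0.79, CCNA2 −0.52 to 0.69, CDC20 −0.15 to 1.20, CDK1 −0.62 to 0.94, CENPE −0.020 to 1.32, CENPF −1.39 to 0.47, DLGAP5 −0.79 to 0.27, ECT2 −1.25 to 0.18, ESPL1 −0.98 to 0.79, FOXM1 −0.22 to 0.17, HMMR −0.67 to 0.68, KIF23 −0.39 to 0.50, MAD2L1 −0.091 to 0.92, MKI67 −1.0 to 0.14, NDC80 −0.062 to 1.17, NEK2 −0.76 to 0.52, NUF2 −0.10 to 1.17, NUSAP1 −0.65 to 0.18, PRC1 −0.55 to 0.72, PTTG1 −0.59 to 0.66, TOP2A −1.13 to 0.42, TPX2 −0.74 to 0.28, TTK −1.04 to 0.71, UBE2C −0.71 to 0.91.

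Same-numbered arrays did not deviate together (r = −0.12, 0.07 and −0.11 across genes, which are not independent replicates). Differently numbered arrays gave r from −0.18 to 0.24. No pairing by number was thus seen, and the labels state none, but so few arrays cannot settle whether the numbers pair them. With the replicate number as a block in limma, 25 members were lower, 4 had an unadjusted p under 0.05 and 0 passed the adjusted threshold (smallest adjusted p = 0.153). The share of all genes with an unadjusted p under 0.05 was not counted with this block.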
